A study of Homo sapiens with 3 samples.

Results

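The genes described here are 9 members of the pericellular proteolysis system, namely the plasminogen activators PLAU and PLAT, the urokinase receptor PLAUR, the matrix metalloproteinases MMP1, MMP2 and MMP14, and the tissue inhibitors of metalloproteinases TIMP1, TIMP2 and TIMP3. They were chosen by symbol, and all 9 were among the 44591 genes of the expression table. On log2(RPKM + 1), TIMP1 showed the greatest difference from si-Control among the genes above the filter on low values. Its mRNA reached 156% of the si-Control level with the first siRNA to RBCK1 and 139% with the second. TIMP2 was below its control level in both knockdown libraries, at 83.1% and 84.9%, MMP14 stood at 124% and 117%, and MMP2 at 87.6% and 70.3%. PLAU, the most abundant protease of the set, stood at 122% and 105%, and the scarce PLAT at 173% and 139%. MMP1 was rare and was high in 1 library only, and TIMP3 was listed at 0 in 2 of the 3 libraries.

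Urokinase (PLAU) and tissue-type plasminogen activator (PLAT) are serine proteases that cut plasminogen into plasmin, which degrades fibrin and matrix proteins. PLAUR anchors urokinase at the cell surface, and serpins block the activators. Matrix metalloproteinases are zinc proteases that are made as inactive precursors, and TIMPs bind their active sites. TIMP2 also has a role in activation, since MMP14 at the cell membrane uses it as a bridge to capture and cut pro-MMP2. In kidney tumours these genes are best known for their part in matrix remodelling and invasion.

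The study asked what depletion of RBCK1 changes in renal cancer cells. RBCK1 encodes HOIL-1, a subunit of the linear ubiquitin chain assembly complex. Caki-1, an established human line of clear cell renal cell carcinoma, received a control siRNA (si-Control) or 1 of 2 siRNAs to RBCK1 (si-RBCK1 #1 and si-RBCK1 #2). According to the general methods, transfections used 10 nmol/L siRNA and RNA was taken after 48 h. Each condition had 1 library of RNA depleted of ribosomal RNA, and the labels name no other treatment or allele. Transient transfection leaves the cells that took up no siRNA in the culture. A single library stood for each condition, so differences carry no replicate error and none was tested. The siRNAs, called siRNA #1 and siRNA #2 from here on, were kept apart rather than pooled, and both are set against the same si-Control library. In a bulk library, a lower level in every cell and fewer cells that express a gene cannot be told apart.

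The treatments themselves are shown by their sense strands, because a short match to the seed of the guide strand can act on other transcripts. Capitals mark the bases that a transcript must hold to pair with that seed:
si-RBCK1 #1: ggtgcaccttcATCAACAa
si-RBCK1 #2: ggattaccagcGATTTCTa
Among the longest protein-coding transcripts of the 9 genes, only that of MMP14 held such a site, 1 for each siRNA, while 23.8% and 29.2% of 10568 expressed genes held 1 or more. A site is a match of letters and says nothing of an effect.

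RBCK1 itself was at 33.3 RPKM (reads scaled to transcript length and to the mapped reads of the library) in si-Control, 9.97 RPKM under siRNA #1 and 12.3 RPKM under siRNA #2. Both knockdown libraries were therefore low, at 29.9% and 36.8% of the control. The read totals behind the 3 libraries, recovered from the RPKM steps, were between 36344428 and 40442939. The renal lineage factor PAX8 was at 82.5 to 124 RPKM, whereas PAX2 was at or near 0. Of the markers of other cells, none of 4 endothelial genes, COL1A1 alone of 6 fibroblast genes (3.21 to 4.68 RPKM) and CD68 alone of 5 leukocyte genes (41.8 to 52.3 RPKM) had a mean of 1 RPKM or more, and CD3E was listed at 0 throughout. Of the renal epithelial list, KRT8 moved from 65.6 to 172 and 238 RPKM, and VIM from 664 to 1512 and 1392 RPKM. Their part in the differences described here was not tested.

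Differences are given as log2 ratios of RPKM + 1, which understate the change of genes near or below 1 RPKM. A gene entered counts and medians if its mean over the 3 libraries was at least 1 RPKM, which held for 12403 genes. Of the 9 genes of the set, 7 passed, and MMP1 and TIMP3 did not. A gene under 1 RPKM in si-Control could pass through the knockdown libraries alone, as PLAT, MMP15 and PRSS23 did. MMP19, above 1 RPKM in si-Control only, did not pass. For single genes the log2 ratio of reads per library total is also given, with an exact 95% Clopper-Pearson interval that covers counting error only.

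PLAU was at 139 RPKM in si-Control, 169.5 RPKM under siRNA #1 and 147 RPKM under siRNA #2. The control library was the lowest of the 3, although the second siRNA came within a few percent of it. On log2(RPKM + 1) the differences were 0.28 and 0.08. The reads behind these values were 13827, 18470 and 14356, and the counting intervals of their log2 ratios ran from 0.25 to 0.32 and from 0.04 to 0.11. PLAU lies at chr10:75670859-75677259 on the plus strand (hg19) and shares that interval with C10orf55 on the other strand. Whether reads were counted by strand is not given in the sources used here, so reads of this pair could be mixed. C10orf55 was listed at 0.722, 1.42 and 1.34 RPKM, far under PLAU.

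PLAT, the activator best known for clearing fibrin in vessels, was expressed at a small fraction of PLAU. Its 3 values were 0.975 RPKM in si-Control, 1.69 RPKM under siRNA #1 and 1.36 RPKM under siRNA #2, from 116, 220 and 159 reads. Again the control was the lowest library. The log2 ratios were 0.44 and 0.26 with the added 1 RPKM, and 0.79 (0.46 to 1.13) and 0.48 (0.12 to 0.84) from the reads alone. PLAU exceeded PLAT 143-fold in si-Control, 100.4-fold under siRNA #1 and 108-fold under siRNA #2, on the RPKM scale, which corrects for length.

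PLAUR, the glycolipid-anchored receptor of urokinase, was at 20.4 RPKM in si-Control, 21.3 RPKM under siRNA #1 and 18.01 RPKM under siRNA #2. Here the 2 siRNAs stood on either side of the control. The log2 ratio under siRNA #1 was 0.06, and its counting interval (-0.04 to 0.16) included no difference. With siRNA #2 it was -0.17, with an interval from -0.29 to -0.08. The ratio of ligand to receptor mRNA was 6.80 in si-Control, 7.95 under siRNA #1 and 8.14 under siRNA #2. PLAUR lies at chr19:44150247-44174498 on the minus strand (hg19).

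The promoters of this ligand and receptor are shown because the pair works together at the cell surface. Each window holds the 250 bases before a RefSeq transcription start and the 50 bases after its first position, on GRCh38.p14. Capitals mark an AP-1 motif (TGANTCA) or a GC box (GGGCGG on either strand):
PLAU, second start, chr10:73910882-73911181, plus strand: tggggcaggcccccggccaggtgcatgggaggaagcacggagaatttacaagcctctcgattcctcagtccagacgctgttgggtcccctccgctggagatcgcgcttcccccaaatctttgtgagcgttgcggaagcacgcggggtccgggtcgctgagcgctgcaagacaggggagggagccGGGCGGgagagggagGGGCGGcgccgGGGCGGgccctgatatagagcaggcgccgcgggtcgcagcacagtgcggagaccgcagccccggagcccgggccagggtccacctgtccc
PLAUR, chr19:43670120-43670419, minus strand: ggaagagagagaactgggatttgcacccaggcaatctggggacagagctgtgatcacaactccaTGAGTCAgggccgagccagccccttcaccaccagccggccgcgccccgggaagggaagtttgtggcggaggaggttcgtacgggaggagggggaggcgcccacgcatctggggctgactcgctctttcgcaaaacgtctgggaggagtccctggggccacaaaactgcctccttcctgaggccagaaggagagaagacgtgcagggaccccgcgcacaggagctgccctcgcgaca
The second PLAU window held 3 GC boxes, at -66, -51 and -40 from the start, and no AP-1 motif, and a window at the first PLAU start held neither. The PLAUR window held 1 AP-1 motif at -186 and no GC box. Over all 35116 RefSeq windows, 7.71% held the AP-1 motif and 45.0% a GC box. These are matches of letters within the windows and not binding sites.

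MMP14, the membrane-bound metalloproteinase that activates pro-MMP2, was at 28.7 RPKM in si-Control, 35.6 RPKM under siRNA #1 and 33.4 RPKM under siRNA #2. Both knockdown libraries were above the control. The log2 ratios on RPKM + 1 were 0.30 and 0.21, and from the 3804, 5181 and 4364 reads they were 0.31 (0.25 to 0.38) and 0.22 (0.16 to 0.28). MMP14 lies at chr14:23305742-23316809 on the plus strand (hg19).

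MMP2, gelatinase A, went the other way. Its values were 6.03 RPKM in si-Control, 5.29 RPKM under siRNA #1 and 4.24 RPKM under siRNA #2, so that the control was the highest library. On log2(RPKM + 1) the differences were -0.16 and -0.42, and the reads gave -0.19 (-0.33 to -0.06) and -0.51 (-0.66 to -0.36). The enzyme that activates and the enzyme that is activated thus diverged at the mRNA level. MMP14 exceeded MMP2 4.75-fold in si-Control, 6.74-fold under siRNA #1 and 7.87-fold under siRNA #2. The change of MMP14 relative to MMP2 was 0.51 on the log2 scale under siRNA #1 (exact conditional interval 0.36 to 0.65) and 0.73 under siRNA #2 (0.57 to 0.89), counting error only. MMP2 lies at chr16:55512742-55540603 on the plus strand (hg19).

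MMP1, interstitial collagenase, was below the filter, with a mean of 0.820 RPKM. It was at 0.527 RPKM in si-Control, 1.61 RPKM under siRNA #1 and 0.321 RPKM under siRNA #2, which came from 40, 134 and 24 reads. The library under siRNA #1 stood alone. Its log2 ratio of reads to si-Control was 1.61 (1.09 to 2.16), whereas that of siRNA #2 was -0.71 with an interval that included no difference (-1.51 to 0.05). Set against siRNA #1, siRNA #2 had a log2 ratio of reads of -2.33 (-3.02 to -1.69), the greatest gap between the 2 siRNAs among the 8 genes of the set with reads in every library. On log2(RPKM + 1) the 2 ratios to si-Control were 0.77 and -0.21. MMP1 lies at chr11:102660641-102668966 on the minus strand (hg19), within the interval of WTAPP1 on the other strand. WTAPP1 was listed at 0.236 RPKM in si-Control, 0 RPKM under siRNA #1 and 0.0104 RPKM under siRNA #2, so the control level of MMP1 could hold reads of this neighbour, and its part was not tested.

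**Figure D1:**
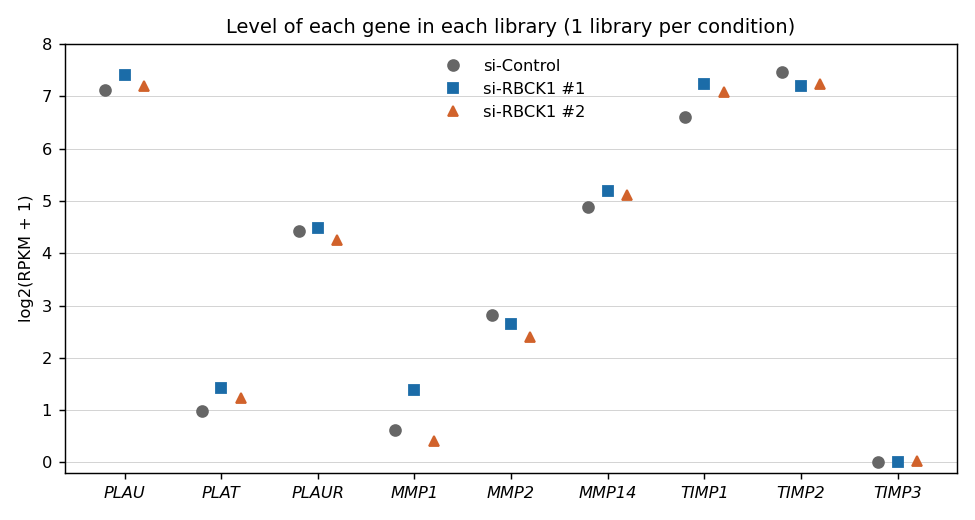
Level of each of the 9 genes on log2(RPKM + 1) (vertical axis) in si-Control (circles), siRNA #1 (squares) and siRNA #2 (triangles), 1 library each, with no error bars because there are no replicates. PLAU, TIMP1 and TIMP2 share the top of the scale, MMP1 and PLAT lie near the bottom, and TIMP3 lies at 0.

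TIMP1, an inhibitor of most secreted metalloproteinases, was at 96.7 RPKM in si-Control, 150.5 RPKM under siRNA #1 and 135 RPKM under siRNA #2. Both knockdown libraries stood well above the control. The log2 ratios on RPKM + 1 were 0.63 and 0.47, above those of 89.7% and 83.5% of the 12403 genes. The values were whole multiples of a read at a length of 458 nt, which gave at least 1636, 2787 and 2240 reads and counting intervals from 0.55 to 0.73 and from 0.38 to 0.57. The longest protein-coding transcript has 1095 nt, so the true reads may be a multiple of these and the intervals narrower. TIMP1 lies at chrX:47441690-47446190 on the plus strand (hg19), inside SYN1 on the other strand. SYN1, a synapsin gene, was listed at 0.0422, 0 and 0.0429 RPKM.

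TIMP2, the inhibitor that also bridges MMP14 and pro-MMP2, was at 175 RPKM in si-Control, 146 RPKM under siRNA #1 and 149 RPKM under siRNA #2. The control was the highest library, and both siRNAs gave nearly the same level. The log2 ratios were -0.27 and -0.23, and the 23662, 21539 and 19770 reads put their counting intervals at -0.29 to -0.24 and -0.26 to -0.21. TIMP2 lies at chr17:76849059-76921472 on the minus strand (hg19). The genes inside its interval, CEP295NL on the same strand and a pair of antisense RNAs, were each listed under 1 RPKM in every library.

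The 2 abundant inhibitors therefore drew close in level. TIMP2 exceeded TIMP1 1.81-fold in si-Control, and the ratio was 0.968 under siRNA #1 and 1.11 under siRNA #2. TIMP1 made up 35.6% of the summed TIMP RPKM in si-Control, 50.8% under siRNA #1 and 47.5% under siRNA #2. Relative to TIMP2, TIMP1 changed by 0.90 on the log2 scale under siRNA #1 (exact conditional interval 0.81 to 1.00) and by 0.71 under siRNA #2 (0.62 to 0.81). The sum itself was 272 RPKM in si-Control, 296 RPKM under siRNA #1 and 283 RPKM under siRNA #2. The 3 metalloproteinases summed to 35.2, 42.5 and 38.0 RPKM, so that inhibitor mRNA exceeded protease mRNA 7.73-fold, 6.96-fold and 7.47-fold in the same order of libraries. TIMP2 per MMP14 was 6.12 in si-Control, 4.09 under siRNA #1 and 4.46 under siRNA #2.

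TIMP3, the inhibitor that stays bound to the matrix, was listed at 0 RPKM in si-Control and under siRNA #1, and at 0.0201 RPKM under siRNA #2. That value equals 1 read at the shortest length that fits the value. A count of 0 allows up to 3 reads, or 0.0593 RPKM in si-Control and 0.0542 RPKM under siRNA #1 at that length. Any TIMP3 mRNA was thus under these limits, and no change is read from its values. TIMP3 lies at chr22:33196802-33259028 on the plus strand (hg19), inside SYN3 on the other strand, which was itself at 0.00786 to 0.0175 RPKM.

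The TIMP1 and TIMP3 promoters are set side by side because they belong to the same family. TIMP1 had the greatest difference on log2(RPKM + 1) above the filter, and TIMP3 had almost no reads. The windows are those of RefSeq on GRCh38.p14, with GC boxes (GGGCGG on either strand) in capitals:
TIMP1, chrX:47582186-47582485, plus strand: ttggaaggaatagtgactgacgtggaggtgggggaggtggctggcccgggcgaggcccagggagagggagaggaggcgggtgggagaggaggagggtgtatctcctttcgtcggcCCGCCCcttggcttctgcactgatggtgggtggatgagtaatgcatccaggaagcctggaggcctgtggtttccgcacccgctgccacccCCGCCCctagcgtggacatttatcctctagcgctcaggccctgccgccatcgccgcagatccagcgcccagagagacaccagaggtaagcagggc
TIMP3, chr22:32801455-32801754, plus strand: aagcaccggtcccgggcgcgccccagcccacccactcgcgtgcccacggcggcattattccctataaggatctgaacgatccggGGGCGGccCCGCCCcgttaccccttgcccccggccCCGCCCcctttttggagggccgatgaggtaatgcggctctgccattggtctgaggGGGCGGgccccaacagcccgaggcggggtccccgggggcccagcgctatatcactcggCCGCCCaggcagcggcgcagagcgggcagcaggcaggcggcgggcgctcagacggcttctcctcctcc
TIMP1 held 2 GC boxes, at -135 and -45, and TIMP3 held 5. Neither window held an AP-1 motif (TGANTCA) or a TATA box (TATAAA). The TIMP3 window had 31 CG dinucleotides, more than 79.3% of all windows, and the TIMP1 window had 16, against a median of 14. Methylation was not measured in these samples.

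**Figure D2:**
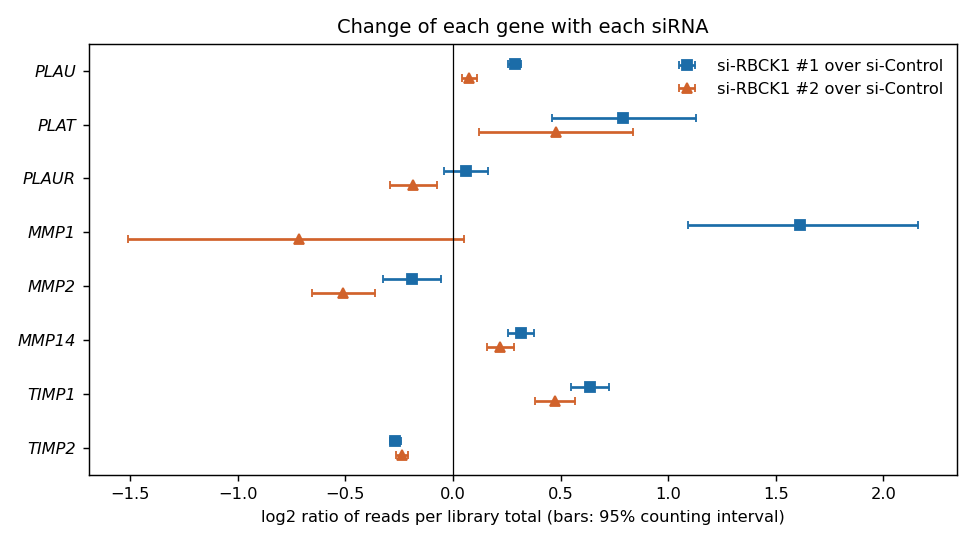
Log2 ratio of reads per library total (horizontal axis) for the 8 genes with reads in every library, under siRNA #1 (squares) and siRNA #2 (triangles) each over the same si-Control library. Bars are exact 95% counting intervals and do not include variation between cultures. TIMP1, MMP14, PLAT and PLAU lie right of 0 with both siRNAs, TIMP2 and MMP2 left of 0, and MMP1 lies far right under siRNA #1 alone.

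Among the 7 genes above the filter, none was 2-fold different from si-Control with either siRNA, where 6.18% of all 12403 genes were under siRNA #1 and 4.76% under siRNA #2. At 1.5-fold, TIMP1 alone was higher under siRNA #1, against 12.1% of all genes, and none was lower, against 11.6%. With siRNA #2 none was 1.5-fold higher or lower, against 11.3% and 9.32%. The median log2 ratio of the 7 was 0.28 under siRNA #1 and 0.08 under siRNA #2, while that of all genes was 0.02 and 0.03. With a filter at a mean of 5 RPKM, which PLAT does not pass, the medians of the remaining 6 were 0.17 and -0.049, so the direction under siRNA #2 turned, and with a pseudocount of 5 RPKM the median under siRNA #1 was 0.16. The 7 genes lay mostly within the body of the distribution of all genes, and no test sets them apart from it. All these limits apply to log2(RPKM + 1), on which the 173% of PLAT does not reach 1.5-fold.

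The interval lay off 0 for 6 of the 7 genes under siRNA #1, with PLAU, PLAT, MMP14 and TIMP1 higher and MMP2 and TIMP2 lower. It did so for all 7 under siRNA #2, with the same 4 higher and MMP2, TIMP2 and PLAUR lower. At this depth 77.7% and 75.1% of all genes were off 0 in the 2 comparisons, so such a count is not particular to the set. In the direct comparison of siRNA #2 under siRNA #1, none of the 7 was 1.5-fold different, against 6.18% of all genes, and the interval lay off 0 for all 7, against 62.5%. Of these, 6 were lower under siRNA #2, where 5976 of all 12403 genes were lower and 3605 had an interval below 0. The median log2 ratio was -0.19 over the 7, against 0.01 over all genes. TIMP2 was higher by 0.03 on the log2 scale, and this became -0.01 when the libraries were scaled to equal medians.

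The other genes of the plasmin system gave the 7 genes their surroundings. PLG, the plasminogen gene, was near 0 at 0.0257, 0.0117 and 0.00652 RPKM, with 4, 2 and 1 reads, so almost no mRNA of the activators' substrate was counted. SERPINE2, a protease nexin that inhibits urokinase, was at 22.3, 28.7 and 25.7 RPKM (log2 ratios 0.35 and 0.20).

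Receptors and cofactors of the same list also differed. THBD, thrombomodulin, an anticoagulant surface receptor, was at 131 RPKM in si-Control, 23.4 RPKM under siRNA #1 and 42.6 RPKM under siRNA #2, log2 ratios of -2.43 and -1.59. S100A10, a plasminogen-binding partner of annexin A2, was at 160 RPKM in si-Control, 277 RPKM under siRNA #1 and 255 RPKM under siRNA #2 (0.79 and 0.67). VLDLR, an endocytic receptor that can clear inhibited urokinase, was at 15.1, 9.54 and 9.71 RPKM (-0.61 and -0.59). Of the 18 genes of the list, 10 passed the filter. With siRNA #1, S100A10 was the 1 gene 1.5-fold higher, and 4 were 1.5-fold lower, which were THBD, VLDLR, PLGRKT (a plasminogen receptor) and MRC2 (a collagen receptor). Under siRNA #2, S100A10 was again higher, and THBD and VLDLR were again lower. The median log2 ratio of the 10 was -0.43 and -0.03. Of all 12403 genes, 12.1% were 1.5-fold higher and 11.6% lower under siRNA #1, and 11.3% and 9.32% under siRNA #2. The same shares apply to the lists below, and no list was tested against them.

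Of 20 other metalloproteinases, 4 passed the filter, as did 12403 of all 44591 genes. The 4 were MMP7, MMP15, MMP16 and MMP24, with median log2 ratios of 0.19 and 0.26. Under siRNA #1 none was 1.5-fold different, while under siRNA #2 only MMP24 was higher. MMP24, a membrane-type enzyme, was at 1.95 RPKM in si-Control, 2.00 RPKM under siRNA #1 and 4.197 RPKM under siRNA #2 (0.02 and 0.82). MMP15, another membrane-type enzyme, was at 0.847, 1.29 and 1.70 RPKM (0.31 and 0.55), and passed the filter through the knockdown libraries alone. MMP9, gelatinase B, was below the filter at 0.672, 0.857 and 0.565 RPKM.

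Among 9 regulators of metalloproteinases, 5 passed the filter (FURIN, RECK, TFPI2, BSG and THBS2), with median log2 ratios of -0.20 and -0.09. FURIN, the convertase that removes the propeptide of MMP14, was at 13.5 RPKM in si-Control, 25.3 RPKM under siRNA #1 and 20.6 RPKM under siRNA #2 (0.86 and 0.58). It stood above the control with both siRNAs, as MMP14 did, and a link between them was not tested. Of all 12403 genes, 6393 were higher under siRNA #1 and 6641 under siRNA #2. RECK, a membrane-anchored inhibitor, was at 3.01, 2.26 and 2.22 RPKM (-0.30 and -0.32). TFPI2, a Kunitz-type inhibitor of plasmin, was at 229, 199 and 131 RPKM (-0.20 and -0.80), and BSG, the metalloproteinase inducer basigin, was at 91.1, 105 and 121 RPKM (0.20 and 0.40). FURIN was the only one of the 5 that was 1.5-fold higher under siRNA #1, none was under siRNA #2, and TFPI2 was the only one 1.5-fold lower, under siRNA #2.

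Of 22 ADAM and ADAMTS genes, which encode related metalloproteinases that shed surface proteins or cut proteoglycans, 10 passed the filter, with median log2 ratios of -0.38 and -0.40. ADAM19 was higher, at 3.33 RPKM in si-Control, 9.24 RPKM under siRNA #1 and 6.68 RPKM under siRNA #2 (1.24 and 0.83). ADAM10, a major sheddase, was lower, at 36.8 RPKM in si-Control, 15.0 under siRNA #1 and 26.5 under siRNA #2 (-1.24 and -0.46). ADAMTS1 had log2 ratios of -0.50 and -0.72, and ADAMTS16 of -0.67 and -0.43. The list had 2 genes 1.5-fold higher under siRNA #1 (ADAM19 and ADAMTS9) and 3 lower (ADAM10, ADAMTS10 and ADAMTS16), and 1 higher (ADAM19) and 1 lower (ADAMTS1) under siRNA #2.

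Of 23 other serine proteases, serpins and Kunitz inhibitors, 7 passed the filter, with median log2 ratios of -0.18 and -0.12. PRSS23, a secreted serine protease, was at 0.573 RPKM in si-Control, 2.68 RPKM under siRNA #1 and 2.21 RPKM under siRNA #2 (1.23 and 1.03). It passed the filter through the knockdown libraries alone. SPINT2, an inhibitor of surface serine proteases, was at 5.77, 2.36 and 4.89 RPKM (-1.01 and -0.20). The intracellular serpins SERPINB1 (-0.52 and -0.28) and SERPINB8 (-0.18 and -0.29) were below the control with both siRNAs. PRSS23 and SPINT2 were the only genes of this list past 1.5-fold under siRNA #1, and PRSS23 the only one under siRNA #2.

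**Figure D3:**
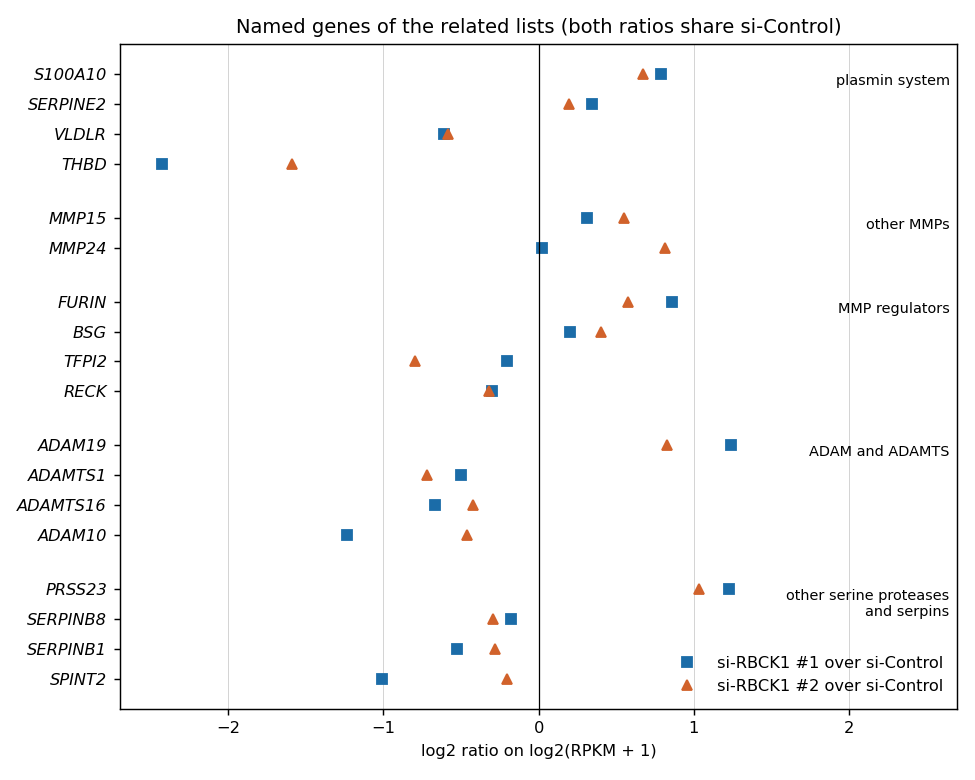
Log2 ratio on RPKM + 1 (horizontal axis) of the named genes of each related list above the filter, under siRNA #1 (squares) and siRNA #2 (triangles) over the same si-Control library, 1 library each. THBD is farthest left, at -2.43 and -1.59, and ADAM19 and PRSS23 are farthest right. PRSS23 passed the filter through the knockdown libraries alone.

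PLAT, at chr8:42032236-42065242 on the minus strand (hg19), completes the positions of the set. Likeness of pattern was measured as the distance over the 2 log2 ratios to si-Control among 5549 protein-coding genes averaging 10 RPKM or more. The nearest to PLAU were CD81 (0.28 and 0.07), RHOA (0.28 and 0.09) and CRKL (0.27 and 0.07). The nearest to TIMP1 were TRMT112 (0.63 and 0.47), MRPS22 (0.63 and 0.48) and MALSU1 (0.64 and 0.47). With 2 ratios that share a control, such likeness is a description of 3 libraries.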

How the data were processed

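RNA-seq was performed on 3 Caki-1 libraries, 1 per condition. The authors deposited 1 table of RPKM values per gene. The submitters' processing notes name Trimmomatic, FastQC, TopHat2, HTSeq and the hg19 build, without their order, and the gene annotation and strand setting are not given in the sources used here. The table's 5 further columns hold the authors' group values, fold change, p-value and q-value, and were not used. For whole reads, the length and library totals that made the RPKM values whole multiples of 1 read were searched (within 0.002 reads), which succeeded for 99.9% of the 12403 genes used. The search was tested on simulated data. Differences were log2 ratios of RPKM + 1 without further scaling, for genes averaging 1 RPKM or more, and 1 entry of the table was not a number. Intervals were exact Clopper-Pearson intervals at 95%, and for a ratio between genes exact conditional intervals of the odds ratio. No test was possible with 1 library per condition. The genes and lists were chosen with earlier results of these data known. Named were the 9 genes, RBCK1, PLG, SERPINE2, MMP9 and RECK, up to 4 genes per list by the size of the smaller of 2 same-sign log2 ratios, and the 3 genes nearest in pattern to PLAU and to TIMP1, and some genes that this rule or the marker lists name are not reported here. MMP3, MMP7, MMP16, MMP19, PLGRKT, MRC2, THBS2, ADAMTS9 and ADAMTS10 were named after their values were seen. Other scalings, pseudocounts, filters and fold limits were tried. Python 3.11.15, numpy 2.4.6, pandas 2.3.3 and scipy 1.17.1 were used. Promoters came from RefSeq (GRCh38.p14), with windows used for 5 of the 9 genes, 4 of them printed. Windows on chromosome 8, where PLAT lies, were left out. The siRNA strands came from the study's supplementary text.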

Additional observations from a re-analysis of the deposited data

Results flagged for a closer look

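In 2 genes the 2 siRNAs lay on opposite sides of si-Control. MMP1 was above the control under siRNA #1 and below it under siRNA #2, and the 2 knockdown libraries differed by -0.98 on log2(RPKM + 1), siRNA #2 over siRNA #1. PLAUR did the same at a smaller size, with a difference of -0.23. The differences were not tested, since each condition had 1 library. One of the 2 counting intervals included no difference in each gene, that of siRNA #2 for MMP1 and that of siRNA #1 for PLAUR.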

How the results depend on the processing

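No paired analysis was possible because there were no replicates to pair, and none could be left out. The median log2 ratio of the genes above the filter under siRNA #1, 0.28, became 0.23 with equal library totals, 0.16 with a pseudocount of 5 RPKM and 0.17 with a mean of at least 5 RPKM, where PLAT dropped out. With siRNA #2, the median of 0.08 became 0.026 with equal medians, 0.029 with no filter, and -0.049 with a mean of at least 5 RPKM, so its direction turned. The median with no filter was the value of TIMP3, which came from 1 read against 0. The count of genes past the fold limit stayed at 0 under every scaling, pseudocount and filter, and was 1 (TIMP1) at a limit of 1.5-fold under siRNA #1. MMP1 entered this count only with no filter, where the added 1 RPKM held it at 0.77 on the log2 scale under siRNA #1. Its log2 ratio of reads was 1.61 (1.09 to 2.16), past 2-fold, and no setting counted it that way. For single genes, 170 of 171 alternative values kept their direction, and 160 also moved from the reported value by no more than its counting error. These shares say little of robustness. A change of filter leaves the ratio of a single gene as it is, and a pseudocount, or leaving it out, cannot turn its sign. Only scaling to equal medians or equal totals could turn a direction. For PLAT under siRNA #1, a pseudocount of 5 RPKM gave 0.16, below the interval of its read ratio (0.46 to 1.13). The reported 0.44 also lay below that interval, since the added RPKM lowers the ratio of a scarce gene. The value that turned direction was that of TIMP2, siRNA #2 over siRNA #1, at -0.011 with equal medians. No scaling moved the median of all genes by as much as 0.1 on the log2 scale. Depth limits MMP1, PLAT and TIMP3 most, and counting error says nothing of variation between cultures.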

Other observations

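MMP3, stromelysin-1, which lies in the same gene cluster as MMP1, was at 0.199 RPKM in si-Control, 1.54 RPKM under siRNA #1 and 0.245 RPKM under siRNA #2, from 14, 119 and 17 reads. As for MMP1, only the library under siRNA #1 stood apart. MMP19 was at 1.41 RPKM in si-Control, 0.576 RPKM under siRNA #1 and 0.649 RPKM under siRNA #2, from 177, 79 and 80 reads. Both genes had a mean under 1 RPKM and were named after their values were seen.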
